A study of Mus musculus with 13 samples.

Results

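The CC chemokines described here were 10 genes, *Ccl2*, *Ccl3*, *Ccl4*, *Ccl5*, *Ccl6*, *Ccl7*, *Ccl9*, *Ccl11*, *Ccl12* and *Ccl19*, taken from a table of read counts for 47643 mouse genes by matching their Ensembl identifiers to these symbols, and all 10 were found. The counts came from RNA-seq of the neurovasculature of 13 CD1 mice, all male and 8 to 10 weeks old, in 3 groups. Sham-vehicle mice (n = 4) received vehicle without lipopolysaccharide (LPS) or drug, LPS-vehicle mice (n = 5) received vehicle and LPS from *Salmonella enterica* typhimurium intraperitoneally at 3 mg/kg at 0, 6 and 24 h, and LPS-CPD-4645 mice (n = 4) received the same LPS and, by the labels' treatment protocol 30 min after each injection, CPD-4645 subcutaneously at 10 mg/kg; the study's text also gives a longer delay. CPD-4645 inhibits monoacylglycerol lipase, the enzyme that breaks down the endocannabinoid 2-arachidonoylglycerol, and its vehicle was a mixture of DMSO, Cremophor and saline. Brains were taken at 28 h and were not perfused before the vessels were isolated, so blood cells inside the vessels were part of the material. No group received CPD-4645 without LPS. Where a transcript was lower in a group, fewer cells that hold it and less of it in each cell cannot be told apart in such bulk RNA.

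Chemokines are small secreted proteins that direct the migration of leukocytes along a gradient, and the CC class is named after a pair of adjacent cysteines near the start of the mature protein. Each ligand acts on one or several G protein-coupled receptors of the Ccr family on leukocytes, while atypical receptors bind or scavenge the same ligands without the usual signal. In the brain after systemic inflammation, endothelial cells, perivascular macrophages, microglia and astrocytes are all known sources, and transcription factors of the NF-kB family are known drivers of several of these genes.

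The 10 genes fell into 2 runs on chromosome 11 of the GRCm38 build, with *Ccl19* apart on chromosome 4. The first run held *Ccl2* (chr11:82035571-82037453), *Ccl7* (chr11:82045712-82047525), *Ccl11* (chr11:82057823-82062955) and *Ccl12* (chr11:82101845-82103400), all on the plus strand. The second began 1422377 bases further on and held *Ccl5* (chr11:83525778-83530518), *Ccl9* (chr11:83572919-83578636), *Ccl6* (chr11:83587882-83593087) and *Ccl3* (chr11:83647844-83649355) on the minus strand and *Ccl4* (chr11:83662584-83664683) on the plus strand. *Ccl19* lay on the minus strand at chr4:42754525-42756577. All are protein-coding. *Ccl2*, *Ccl6* and *Ccl19* each overlapped a gene annotated on the other strand, and no member overlapped one on its own strand.

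Each of the 10 coding sequences held exactly 1 pair of adjacent cysteine codons. The windows of 51 bases below, taken from GENCODE M21 transcripts, show these codons in capitals for the 3 pairs of genes of the same run whose reads are set side by side further on. They are spliced sequence: those of *Ccl7* and *Ccl9* cross an exon junction, so their coordinates, from first to last base, also take in an intron that is not printed.
Ccl2, chr11:82036485-82036535, plus strand: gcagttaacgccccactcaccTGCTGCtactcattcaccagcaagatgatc
Ccl7, chr11:82045859-82046567, plus strand: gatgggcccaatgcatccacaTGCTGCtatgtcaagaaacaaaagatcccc
Ccl3, chr11:83648628-83648678, minus strand: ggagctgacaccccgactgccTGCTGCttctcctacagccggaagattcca
Ccl4, chr11:83663461-83663511, plus strand: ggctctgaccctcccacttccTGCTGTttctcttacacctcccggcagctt
Ccl6, chr11:83589362-83589412, minus strand: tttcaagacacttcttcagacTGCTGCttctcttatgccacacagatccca
Ccl9, chr11:83575902-83576375, minus strand: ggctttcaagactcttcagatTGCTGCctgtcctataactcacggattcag
Across the 45 pairs of members the identity of the aligned coding sequences ran from 38.1% to 66.7% with a median of 48.2%. The closest pair was *Ccl3* and *Ccl4* at 66.7%, followed by *Ccl7* and *Ccl11* at 66.3% and by *Ccl6* and *Ccl9* at 64.8%. At the read length of 75 bases, no stretch of the transcripts of the 9 members on chromosome 11 occurred in a transcript of another gene. For *Ccl19*, 45.3% of such stretches also occurred in other genes, among them the pseudogene *Ccl19-ps1*, so its count is uncertain.

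The libraries held between 7813559 and 55133373 counted reads, a 7.06-fold range, and the shallowest was that of LPS-vehicle mouse 3. After low-count genes were left out, 17285 genes and 9 of the 10 members were tested, and *Ccl19*, with 52 reads over all 13 mice, was not. Levels are given as CPM, read counts per 1000000 reads of the library, with library sizes scaled with the trimmed mean of M-values. A gene is called higher or lower where edgeR's quasi-likelihood test gave a p, adjusted by Benjamini-Hochberg over all genes tested, no greater than 0.05 and the change was at least 2-fold. Markers of the labelled tissue were present, and the summed level of 10 endothelial cell genes, *Cldn5* and *Pecam1* among them, was 384 to 582 CPM in the sham-vehicle mice. Astrocyte genes were present as well, with a summed level of 1500 to 1860 CPM for 10 genes in those mice.

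The first comparison, LPS-vehicle against sham-vehicle, asked what repeated LPS does to the vessel transcriptome. All 9 members tested were higher after LPS, between 2.88-fold and 47.1-fold, where 4.68% of all genes tested were called higher and 0.995% lower. The median log2 fold change of the 9 was 3.77, against -0.001 for all genes tested. In 7 of the 9 the lowest LPS-vehicle mouse exceeded the highest sham-vehicle mouse, which was the case for 9.68% of all genes, while 8.44% lay wholly below. *Ccl3* and *Ccl11* overlapped between these groups.

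**Figure D1:**
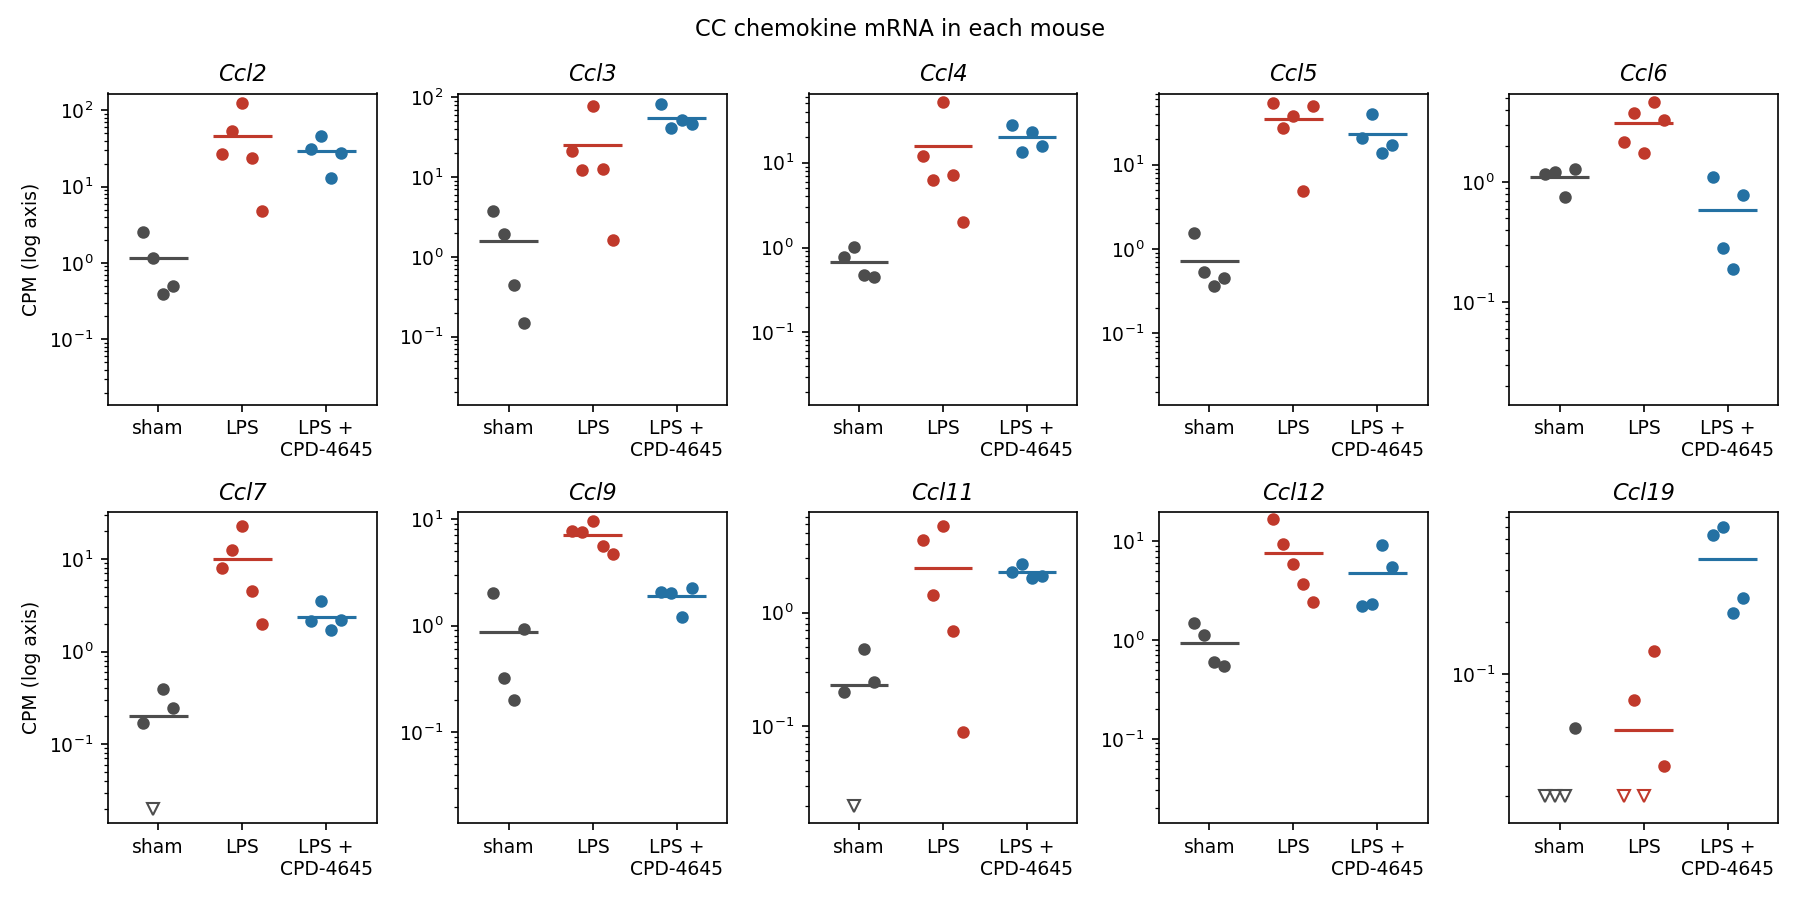
Level of each CC chemokine (CPM, log axis) in each of 13 mice by group: points are mice in the order of their numbers, horizontal lines are group means, and open triangles mark mice in which the gene had no read. The sham-vehicle mice lie lowest for most genes; under LPS-CPD-4645, *Ccl6* and *Ccl9* lie wholly below LPS-vehicle, while *Ccl3* and *Ccl4* do not.

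The ligands of Ccr2, the receptor that draws inflammatory monocytes, are *Ccl2*, *Ccl7* and the rodent gene *Ccl12*. The level of *Ccl2* was 2.57, 1.17, 0.398 and 0.494 CPM in sham-vehicle mice 1 to 4 and 26.4, 52.9, 124, 24.0 and 4.74 CPM in LPS-vehicle mice 1 to 5. The LPS-vehicle mice were all above the sham-vehicle mice, with mouse 3 far above the other four and mouse 5 closest to the sham level. The means were 1.16 ± 1.0 CPM (SD, n = 4) and 46.4 ± 46.6 CPM (SD, n = 5), and the gene rose 35.9-fold (log2 fold change 5.17, SE 0.78, edgeR adjusted p = 1e-04). Its neighbour *Ccl7* stood at 0.171, 0, 0.398 and 0.247 CPM in the sham-vehicle mice and at 8.10, 12.5, 22.7, 4.55 and 2.00 CPM in the LPS-vehicle mice. The order of the LPS-vehicle mice was that of *Ccl2*, with mouse 3 highest and mouse 5 lowest. *Ccl7* rose 47.1-fold (log2 fold change 5.56, SE 0.71, edgeR adjusted p = 1.7e-05), the largest fold change among the members. *Ccl12* ran from 0.543 to 1.48 CPM in the sham-vehicle mice and was 16.7, 9.34, 5.92, 3.70 and 2.44 CPM in LPS-vehicle mice 1 to 5. Here mouse 1, not mouse 3, was highest. It rose 7.94-fold (log2 fold change 2.99, SE 0.57, edgeR adjusted p = 0.00094).

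*Ccl11*, or eotaxin, attracts eosinophils through Ccr3 and lies between *Ccl7* and *Ccl12* on the chromosome. Its level was 0.200, 0, 0.478 and 0.247 CPM in the sham-vehicle mice and 4.36, 1.42, 5.80, 0.685 and 0.0894 CPM in the LPS-vehicle mice. LPS-vehicle mouse 5, with 3 reads, lay within the sham range, and the spread in this group was 64.8-fold. The gene rose 9.87-fold on average (log2 fold change 3.30, SE 0.87, edgeR adjusted p = 0.012).

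*Ccl3* and *Ccl4* are close relatives known as macrophage inflammatory proteins, *Ccl5* is the chemokine also called RANTES, and *Ccl3* and *Ccl5* act on Ccr1. *Ccl3* was 3.79, 1.93, 0.438 and 0.148 CPM in the sham-vehicle mice and 21.4, 12.4, 77.9, 12.8 and 1.64 CPM in the LPS-vehicle mice. LPS-vehicle mouse 5 was below 2 of the sham-vehicle mice, and mouse 3 was 47.5 times mouse 5. *Ccl3* rose 13.7-fold (log2 fold change 3.77, SE 0.82, edgeR adjusted p = 0.0029). *Ccl4* was 0.444 to 1.01 CPM in the sham-vehicle mice and 12.1, 6.28, 51.7, 7.09 and 2.00 CPM in the LPS-vehicle mice, a rise of 21.4-fold (log2 fold change 4.42, SE 0.76, edgeR adjusted p = 0.00039). *Ccl5* was 1.54, 0.523, 0.358 and 0.444 CPM in the sham-vehicle mice and 54.7, 27.2, 38.3, 4.87 and 49.9 CPM in the LPS-vehicle mice. The order of mice in this gene was unlike that of the others, since mouse 5, the lowest for 7 of the 9 members tested, was the second highest for *Ccl5*, and mouse 4 was the lowest. *Ccl5* rose 44.8-fold (log2 fold change 5.49, SE 0.64, edgeR adjusted p = 6.2e-06).

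*Ccl6* and *Ccl9*, both ligands of Ccr1 known from rodents, had the smallest fold changes of the members tested. *Ccl6* was 1.17, 1.21, 0.757 and 1.28 CPM in the sham-vehicle mice and 2.16, 3.77, 1.76, 4.65 and 3.28 CPM in the LPS-vehicle mice. Mouse 3, the highest for 6 members, was the lowest here. *Ccl6* rose 2.88-fold (log2 fold change 1.53, SE 0.41, edgeR adjusted p = 0.014), and without sham-vehicle mouse 3 its adjusted p was 0.052. *Ccl9* was 2.03, 0.322, 0.199 and 0.938 CPM in the sham-vehicle mice and 7.69, 7.55, 9.58, 5.56 and 4.74 CPM in the LPS-vehicle mice. It had the narrowest spread of the members among LPS-vehicle mice, at 2.02-fold, and rose 7.67-fold (log2 fold change 2.94, SE 0.46, edgeR adjusted p = 0.00015).

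The sizes of these rises moved with single libraries by more than 1.5 times, and of the 9 calls that of *Ccl6* alone was lost with a library left out, as given above. Without LPS-vehicle mouse 3 the log2 fold change was 4.44 for *Ccl2*, 2.81 for *Ccl3* and 3.31 for *Ccl4*, and without sham-vehicle mouse 1 it was 6.01 for *Ccl2*, 4.75 for *Ccl3*, 6.29 for *Ccl5* and 3.87 for *Ccl9*. Without sham-vehicle mouse 3 that of *Ccl11* was 3.92. With limma-voom in place of edgeR, 4 of the 9 members were called higher (*Ccl6*, *Ccl7*, *Ccl9* and *Ccl12*), and the adjusted p of the other 5 ran from 0.057 for *Ccl4* to 0.23 for *Ccl11*.

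The second comparison, LPS-CPD-4645 against LPS-vehicle, asked what the inhibitor changes in mice given LPS. Of the 9 members tested, 3 were lower under CPD-4645 (*Ccl6*, *Ccl7* and *Ccl9*), 6 were not called and 0 were higher, where 4.19% of all genes tested were called lower and 1.7% higher. The median log2 fold change of the 9 was -0.62, against -0.023 for all genes. In *Ccl6* and *Ccl9* every LPS-CPD-4645 mouse lay below every LPS-vehicle mouse, as in 12% of all genes, and in no member tested did it lie above, as in 11.1% of all genes. At an unadjusted p under 0.05, 0 members were higher and 3 lower in edgeR. DESeq2 called 0 higher and 3 lower, and limma-voom called 2 higher and 2 lower.

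*Ccl6* stood at 1.11, 0.280, 0.188 and 0.785 CPM in LPS-CPD-4645 mice 1 to 4, against 1.76 to 4.65 CPM in the LPS-vehicle mice. The values rested on 14, 8, 5 and 20 reads. The fall was 5.77-fold (log2 fold change -2.53, SE 0.45, edgeR adjusted p = 0.00053), the largest among the members. *Ccl9* was 2.06, 2.03, 1.2 and 2.24 CPM under CPD-4645 and fell 3.70-fold (log2 fold change -1.89, SE 0.43, edgeR adjusted p = 0.0033). All of these lay below the lowest LPS-vehicle mouse, at 4.74 CPM. *Ccl7* was 2.13, 3.50, 1.73 and 2.20 CPM under CPD-4645 and fell 4.02-fold (log2 fold change -2.01, SE 0.54, edgeR adjusted p = 0.0089). Its groups overlapped through LPS-vehicle mouse 5, at 2.00 CPM. Its call did not hold with limma-voom, where the adjusted p was 0.093, or without the 2 shallowest libraries (mouse 3 of LPS-vehicle, mouse 1 of LPS-CPD-4645), where it was 0.053. When the test asked for a change beyond 2-fold itself (glmTreat), none of the 3 passed, with an adjusted p of 0.072 for *Ccl6*, 0.47 for *Ccl9* and 0.59 for *Ccl7*.

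The levels of *Ccl3* and *Ccl4* in the LPS-CPD-4645 mice lay above those of most LPS-vehicle mice. *Ccl3* was 81.4, 41.8, 51.3 and 46.7 CPM in the LPS-CPD-4645 mice, and each of these was above 4 of the 5 LPS-vehicle mice. LPS-vehicle mouse 3, at 77.9 CPM, lay above 3 of them. The log2 difference was 1.23 (SE 0.65, 95% interval -0.14 to 2.6, edgeR adjusted p = 0.16), so the gene was not called. *Ccl4* was 27.8, 13.3, 23.0 and 15.8 CPM under CPD-4645, again above the LPS-vehicle mice other than mouse 3, with a log2 difference of 0.43 (95% interval -0.78 to 1.64, edgeR adjusted p = 0.6). Both calls turned on that one library. Without LPS-vehicle mouse 3 both genes were called higher, *Ccl3* with a log2 fold change of 2.20 (edgeR adjusted p = 0.0063) and *Ccl4* with 1.54 (edgeR adjusted p = 0.0049), and 5 members were called in place of 3. With all 13 mice in limma-voom both were called higher too, at 2.34 (adjusted p = 0.0021) and 1.47 (adjusted p = 0.011).

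**Figure D2:**
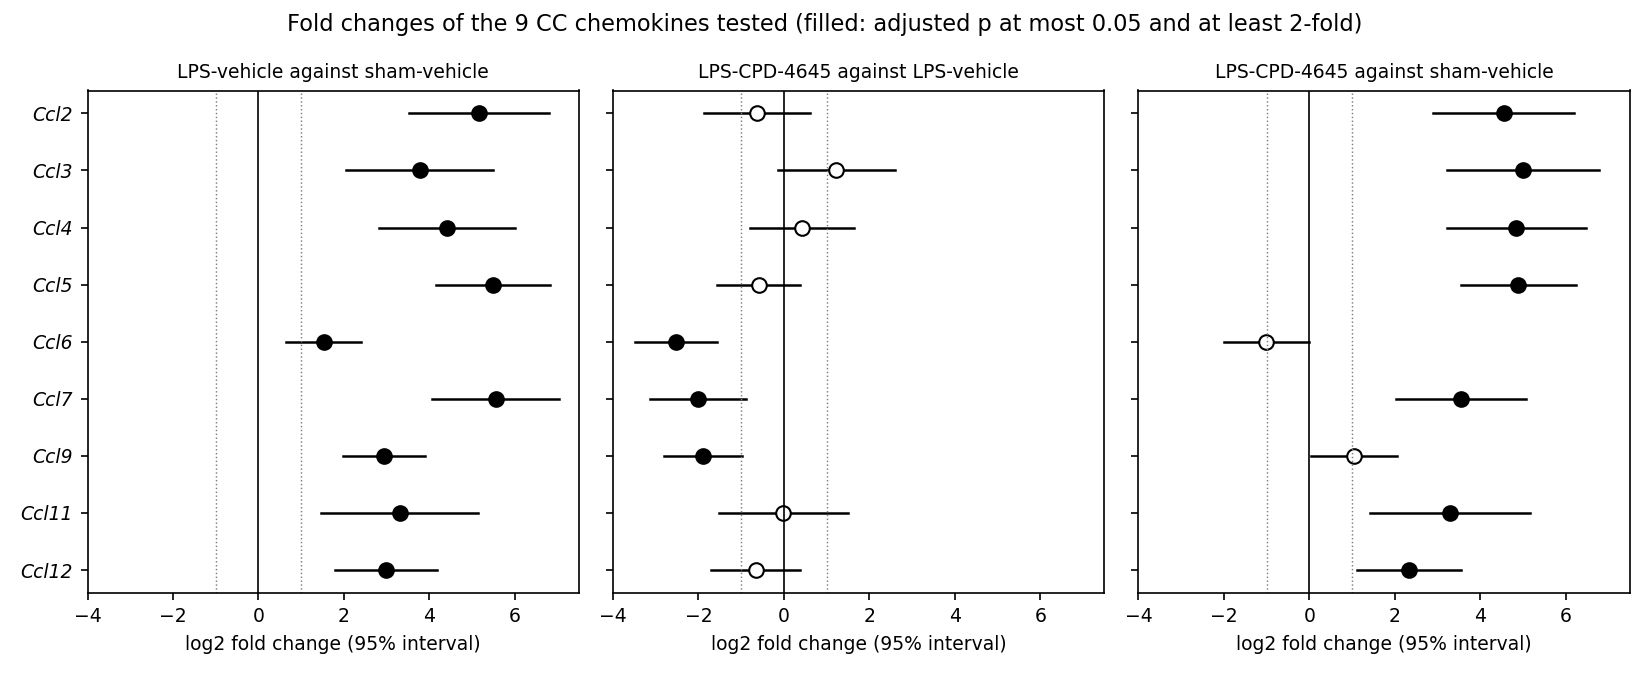
Log2 fold change with its 95% interval for the 9 CC chemokines tested, in the 3 comparisons; filled points passed an adjusted p of 0.05 and 2-fold, and dotted lines mark 2-fold. All 9 are filled in LPS-vehicle against sham-vehicle, *Ccl6*, *Ccl7* and *Ccl9* in LPS-CPD-4645 against LPS-vehicle, and all but *Ccl6* and *Ccl9* in LPS-CPD-4645 against sham-vehicle.

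The other 4 members tested were not called between the LPS groups. *Ccl2* was 31.1, 45.5, 12.8 and 27.6 CPM in the LPS-CPD-4645 mice, all within the range of the LPS-vehicle mice, with a log2 difference of -0.62 (95% interval -1.86 to 0.62) that was 0.11 without LPS-vehicle mouse 3. *Ccl5* was 21, 40.1, 13.8 and 17.3 CPM, also within that range, with a log2 difference of -0.59 (95% interval -1.57 to 0.38). *Ccl12* was 2.21, 2.31, 9.15 and 5.53 CPM and had a log2 difference of -0.66 (95% interval -1.69 to 0.38). For these genes the intervals reach beyond a 2-fold fall, so a change of that size was not detectable as present or absent. *Ccl11* was 2.29, 2.69, 2.03 and 2.12 CPM, a 1.32-fold range against 64.8-fold among the LPS-vehicle mice, and its mean log2 difference was -0.01 (95% interval -1.53 to 1.5).

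*Ccl19*, which guides T cells and dendritic cells through Ccr7, had too few reads to be tested. It had 0, 0, 0 and 1 reads in the sham-vehicle mice, 0, 4, 0, 5 and 1 in the LPS-vehicle mice and 8, 20, 6 and 7 in the LPS-CPD-4645 mice. Every LPS-CPD-4645 mouse had more reads than any other mouse, and the summed, depth-scaled ratio to LPS-vehicle was 7.16 (95% counting interval 3.53 to 16.0, which covers counting error only). With no filter on low counts, edgeR called it higher under CPD-4645 against both other groups. The pseudogene *Ccl19-ps1*, with which it shares stretches of sequence, had more reads, 2, 1, 4 and 1 in sham-vehicle, 27, 36, 10, 16 and 3 in LPS-vehicle and 26, 40, 17 and 47 in LPS-CPD-4645, and its ratio of LPS-CPD-4645 to LPS-vehicle was 2.47 (95% counting interval 1.87 to 3.26). How reads were divided between these genes was not tested.

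The third comparison, LPS-CPD-4645 against sham-vehicle, shares its groups with the first 2 and is given beside them. Of the 9 members tested, 7 were higher than in the sham-vehicle mice and 0 lower, where 6.11% of all genes were called higher and 4.98% lower. All 7 lay wholly above the sham-vehicle mice, as 18.7% of all genes did, while 18.8% of all genes and no member lay wholly below. The median log2 fold change of the 9 was 3.55, against -0.014 for all genes. *Ccl3* was 32.1-fold higher (log2 fold change 5.00, SE 0.85, edgeR adjusted p = 0.00017), against 13.7-fold for LPS-vehicle over the same sham-vehicle mice. *Ccl4* was 28.8-fold, *Ccl5* 29.7-fold, *Ccl2* 23.3-fold, *Ccl7* 11.7-fold, *Ccl11* 9.78-fold and *Ccl12* 5.04-fold higher.

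The 2 members not called were *Ccl6* and *Ccl9*, the 2 whose LPS-CPD-4645 mice all lay below the LPS-vehicle mice. *Ccl6* averaged 0.590 ± 0.433 CPM (SD, n = 4) under CPD-4645 and 1.10 ± 0.236 CPM (SD, n = 4) in the sham-vehicle mice, a log2 difference of -1.0 (SE 0.48, edgeR adjusted p = 0.1). Without LPS-CPD-4645 mouse 1 it was called lower than sham (log2 fold change -1.39, edgeR adjusted p = 0.034). *Ccl9* averaged 1.88 ± 0.461 CPM (SD, n = 4) against 0.871 ± 0.835 CPM (SD, n = 4), a log2 difference of 1.05 (SE 0.48, edgeR adjusted p = 0.09), and without sham-vehicle mouse 1 it was called higher (log2 fold change 1.98, edgeR adjusted p = 0.0024). With limma-voom 3 members were called higher here (*Ccl3*, *Ccl4* and *Ccl11*), with adjusted p of 0.053 to 0.084 for *Ccl2*, *Ccl5*, *Ccl7* and *Ccl12*.

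Because both members of a pair were read from the same library, the ratio of their reads does not depend on depth or scaling. The 3 ratios below were chosen after the values were seen and are given as descriptions without a test. Reads of *Ccl3* per read of *Ccl4* were 1.76, 1.98, 1.51, 1.80 and 0.821 in the LPS-vehicle mice and 2.93, 3.13, 2.23 and 2.95 in the LPS-CPD-4645 mice. The 2 groups did not overlap, although the levels of both genes did, and LPS-vehicle mouse 3, highest for both genes, had a ratio within its group. Reads of *Ccl2* per read of *Ccl7* were 3.26, 4.22, 5.46, 5.28 and 2.37 in the LPS-vehicle mice and 14.6, 13, 7.39 and 12.6 in the LPS-CPD-4645 mice, which again did not overlap. Reads of *Ccl9* per read of *Ccl6* overlapped, at 1.19 to 5.43 and 1.86 to 7.25. In the sham-vehicle mice, where the reads were few, these ratios ranged more widely, from 0.333 to 4.93 for the first pair and from 1.0 to 15 for the second in the 3 mice that had a *Ccl7* read.

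**Figure D3:**
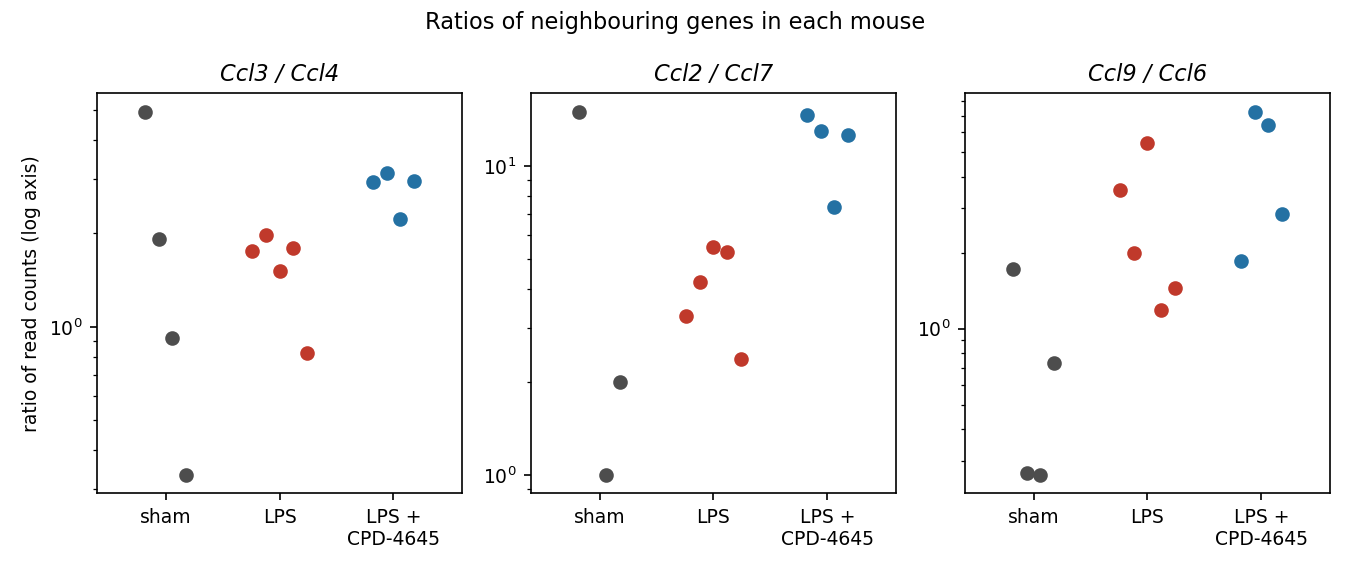
Ratio of read counts of 3 pairs of genes (log axis) in each mouse by group; sham-vehicle mouse 2 had no *Ccl7* read and has no point in the middle panel. *Ccl3* over *Ccl4* and *Ccl2* over *Ccl7* lie higher in all 4 LPS-CPD-4645 mice than in the 5 LPS-vehicle mice, and *Ccl9* over *Ccl6* overlaps.

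Dividing by exon length allows levels of different genes to be compared. In the LPS-vehicle mice the mean level was 65.8 ± 37.4 CPM per kb for *Ccl5* (SD, n = 5), 57.1 ± 57.3 for *Ccl2*, 32.9 ± 39.5 for *Ccl3* and 24.0 ± 30.8 for *Ccl4*, differences within the spread between mice. In the LPS-CPD-4645 mice *Ccl3* had the highest mean, 72.2 ± 23.3 CPM per kb (SD, n = 4), followed by *Ccl5* at 43.3 ± 22.1, *Ccl2* at 36.0 ± 16.5 and *Ccl4* at 30.3 ± 10.1. Mouse by mouse the leading gene varied within each group. In LPS-vehicle mice 2, 3 and 4 it was *Ccl2*, at 35.9%, 33.6% and 34.9% of the summed level per kb of the 10 genes, and in mice 1 and 5 it was *Ccl5*. In LPS-CPD-4645 mice 1, 3 and 4 it was *Ccl3*, and in mouse 2 it was *Ccl5*, at 34.4%. *Ccl3* made up 24.9% to 44.8% of the summed level per kb of the 10 genes in the LPS-CPD-4645 mice and 1.85% to 22.4% in the LPS-vehicle mice. The share of *Ccl5* was 81.0% in LPS-vehicle mouse 5 and 10.8% in mouse 4, so mice of one group differed widely in make-up. *Ccl6* made up 4.83% to 17.4% of the sum in the sham-vehicle mice, 0.270% to 3.82% in LPS-vehicle and 0.0791% to 0.324% in LPS-CPD-4645. These shares are given without a test. *Ccl12* was the largest share on average in the sham-vehicle mice, at 20%.

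**Figure D4:**
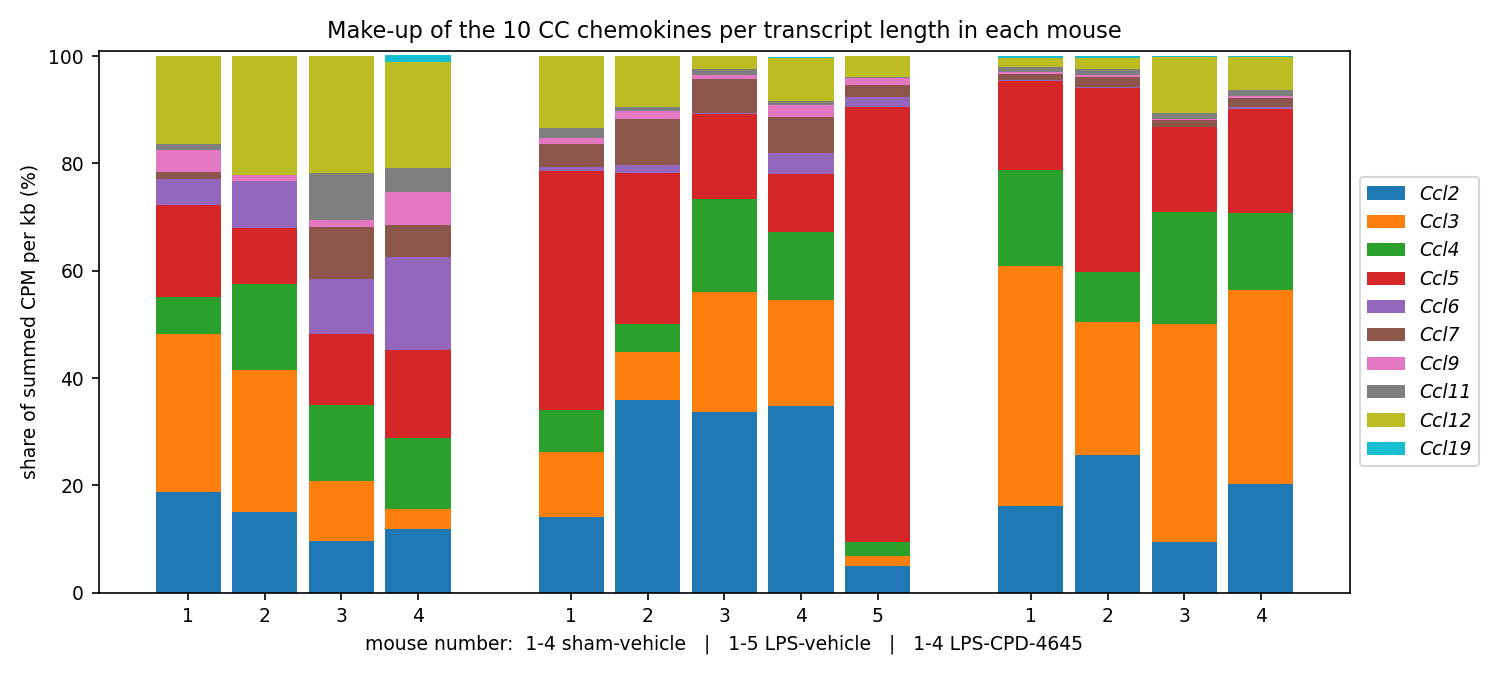
Share of each CC chemokine in the summed level per kb of exon of the 10 genes (% of the sum, bars start at 0) in each mouse. *Ccl3* takes 24.9% to 44.8% in the LPS-CPD-4645 mice; *Ccl5* takes 81.0% in LPS-vehicle mouse 5.

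RefSeq promoter sequences of GRCm38.p6 were held for 5 of the 10 members (*Ccl3*, *Ccl6*, *Ccl9*, *Ccl12* and *Ccl19*). The 250 bases before the start are shown for *Ccl6* and *Ccl9*, which lay lower in all LPS-CPD-4645 mice, and for *Ccl3* of the same run, which did not, with a match to the kappa B consensus in capitals.
Ccl3, chr11:83649379-83649628, minus strand: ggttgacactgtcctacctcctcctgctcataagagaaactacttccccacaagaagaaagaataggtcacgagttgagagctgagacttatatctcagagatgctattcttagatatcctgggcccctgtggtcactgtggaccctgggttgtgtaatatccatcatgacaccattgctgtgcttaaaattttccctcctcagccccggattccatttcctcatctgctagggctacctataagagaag
Ccl6, chr11:83593088-83593337, minus strand: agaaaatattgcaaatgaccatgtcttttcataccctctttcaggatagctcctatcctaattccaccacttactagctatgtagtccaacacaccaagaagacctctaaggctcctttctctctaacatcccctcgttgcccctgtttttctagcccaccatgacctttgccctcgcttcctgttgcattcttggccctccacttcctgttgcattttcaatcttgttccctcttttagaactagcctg
Ccl9, chr11:83578637-83578886, minus strand: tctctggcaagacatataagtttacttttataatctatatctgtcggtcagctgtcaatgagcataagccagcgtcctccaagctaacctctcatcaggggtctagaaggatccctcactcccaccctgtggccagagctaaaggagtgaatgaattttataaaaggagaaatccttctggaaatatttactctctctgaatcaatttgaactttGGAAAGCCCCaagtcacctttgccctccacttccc
The kappa B consensus, searched on both strands, matched once, in *Ccl9*, beginning 35 bases before the start on the antisense strand, and it matched in 3.9% of the 32851 promoters of this length. An AP-1 site, TGANTCA, occurred in *Ccl9* 53 bases before the start, as in 6.75% of all promoters. The PU.1 core, GAGGAA, occurred in *Ccl3* and *Ccl12*, as in 23.3% of all, and the GAS element, TTCNNNGAA, found in 7.02% of all, had no match in the 5. These matches describe letters in these windows only.

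Of 14 other CC ligands listed, 6 had enough reads to be tested, and edgeR called 0 of these in the LPS-vehicle mice, where their median log2 fold change was 0.24. At an unadjusted p under 0.05, 2 were higher and 1 lower, and limma-voom and DESeq2 also called 0. In LPS-CPD-4645 against LPS-vehicle 1 of the 6 was higher, *Ccl17*, a ligand of Ccr4 made by dendritic cells, and the median was 0.36. *Ccl17* was 6.28, 8.37, 4.38 and 3.65 CPM in the sham-vehicle mice, 6.97, 11.3, 7.44, 9.36 and 7.03 CPM in the LPS-vehicle mice and 30.4, 47.5, 56.6 and 44.9 CPM in the LPS-CPD-4645 mice. The LPS-CPD-4645 mice stood clear of both other groups. The calls held with each library left out in turn. The rise over LPS-vehicle was 5.28-fold (log2 fold change 2.40, SE 0.22, edgeR adjusted p = 2e-06) and that over sham-vehicle 7.88-fold (log2 fold change 2.98, edgeR adjusted p = 8.8e-08), where it was again the 1 of 6 called and the median was 0.89.

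Among the CC receptors, *Ccr1*, the receptor of *Ccl3*, *Ccl5*, *Ccl6* and *Ccl9*, was 0.228, 0.483, 0.0398 and 0.148 CPM in the sham-vehicle mice, 1.92, 2.96, 1.39, 0.821 and 0.745 CPM in the LPS-vehicle mice and 0.553, 0.769, 0.188 and 0.746 CPM in the LPS-CPD-4645 mice. It rose 6.87-fold after LPS (log2 fold change 2.78, SE 0.63, edgeR adjusted p = 0.0042), and the difference between the LPS groups was not called (log2 difference -1.48, edgeR adjusted p = 0.062), though it was with DESeq2 and without any one of sham-vehicle mouse 2 and LPS-vehicle mice 4 and 5. *Ccr2*, *Ccr3* and *Ccr7* had 64, 40 and 90 reads over all mice and were not tested. *Ccr7* had 4 reads in the sham-vehicle mice, 34 in the LPS-vehicle mice and 52 in the LPS-CPD-4645 mice, and *Ccr3* had 11, 23 and 6. The level of *Ccr7* was 0.0274 to 0.359 CPM in LPS-vehicle and 0.316 to 0.706 CPM in LPS-CPD-4645, which overlapped. *Ccr2* had 4 reads in the sham-vehicle mice, 53 in the LPS-vehicle mice and 7 in the LPS-CPD-4645 mice. LPS-vehicle mice 1 and 2 held 22 and 28 of the 53 reads, mouse 4 held 3 and mice 3 and 5 none, and all 7 reads under CPD-4645 came from mouse 4.

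Of 5 atypical and accessory receptors, 4 were tested, and 3 were higher after LPS, with a median of 1.21. *Ccrl2*, a non-signalling receptor that binds chemerin, rose 4.21-fold (log2 fold change 2.07, edgeR adjusted p = 0.0041). *Ackr1*, which binds chemokines on venular endothelium and red cells, rose from 47.0 ± 2.01 CPM (SD, n = 4) to 120 ± 48.1 CPM (SD, n = 5), 2.57-fold (edgeR adjusted p = 5e-05), and *Ackr2*, a scavenger of inflammatory CC chemokines, rose 2.08-fold (edgeR adjusted p = 0.029), a call lost without any one of sham-vehicle mice 3 and 4 and LPS-vehicle mice 4 and 5. Between the LPS groups edgeR, limma-voom and DESeq2 each called 0 of the 4 at 2-fold, with a median of 0.05 (1 higher and 1 lower at an unadjusted p under 0.05), although *Ackr1* was lower (log2 difference -0.65, adjusted p = 0.014) and *Ackr3*, a scavenger of CXC chemokines, higher (log2 difference 0.60, adjusted p = 0.0033). Without LPS-vehicle mouse 2, *Ccrl2* was called higher between the LPS groups (log2 fold change 1.22). Against sham-vehicle 2 were called higher under CPD-4645, *Ccrl2* at 6.44-fold and *Ackr3* at 2.03-fold, with a median of 0.87.

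Of 12 NF-kB pathway genes, 7 were higher after LPS, led by *Nfkb2*, a subunit of the family, at 8.18-fold (log2 fold change 3.03, edgeR adjusted p = 4.1e-06), and the median was 1.31. Between the LPS groups edgeR, limma-voom and DESeq2 each called 0 of the 12, with a median of 0.12 (2 higher and 3 lower at an unadjusted p under 0.05), and against sham-vehicle 7 were higher under CPD-4645, led by *Tnfaip3*, an inhibitor of NF-kB signalling, at 7.18-fold, with a median of 1.38. Of 12 immediate early genes, 1 was higher after LPS, *Atf3*, a stress-induced transcription factor, at 5.62-fold, and 2 were lower, led by *Egr1* at 2.38-fold, with a median of 0.46. Between the LPS groups edgeR called 0 of the 12 (median -0.20), with 3 lower at an unadjusted p under 0.05 and 1 called lower by DESeq2, and against sham-vehicle 2 were higher, led by *Atf3* at 6.57-fold, and 2 lower, led by *Egr2* at 4.79-fold (median -0.05).

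**Figure D5:**
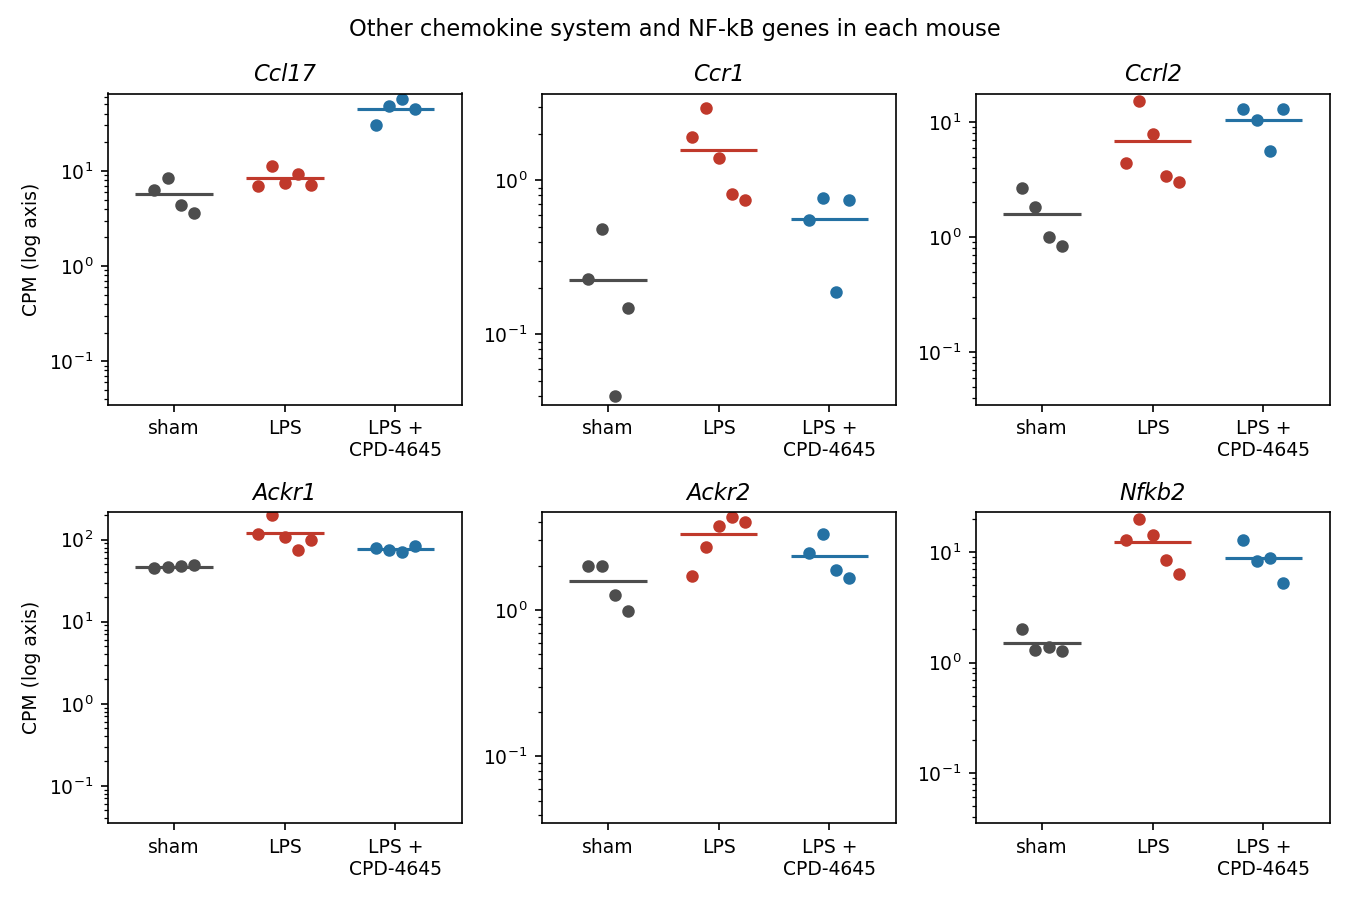
Level (CPM, log axis) of *Ccl17*, the receptors *Ccr1*, *Ccrl2*, *Ackr1* and *Ackr2*, and *Nfkb2* in each mouse by group; points are mice and lines are group means. The 4 LPS-CPD-4645 mice are above all others for *Ccl17* (30.4 to 56.6 CPM), and the LPS-vehicle mice are above the sham-vehicle mice for *Ccr1* (0.745 to 2.96 CPM against 0.0398 to 0.483 CPM).

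By group, the monocyte, macrophage and neutrophil markers that were called were higher after LPS and lower under CPD-4645, as were *Ccl6*, *Ccl7* and *Ccl9*. Within the LPS-vehicle group *Ccl6* did not follow the monocyte and macrophage sum. It was lowest in mouse 3 (1.76 CPM), where that sum was highest (150 CPM), and highest in mouse 4 (4.65 CPM), where that sum was lowest (82.3 CPM). Of 12 monocyte and macrophage genes, 10 were tested, 9 were higher after LPS (median log2 fold change 2.14) and 5 were lower under CPD-4645 than in LPS-vehicle (median -1.41), and their summed level was 26.3 to 36.1 CPM in sham-vehicle, 82.3 to 150 CPM in LPS-vehicle and 27.9 to 48.1 CPM in LPS-CPD-4645. Of 12 neutrophil genes, 11 were tested, 10 were higher after LPS (median 4.87) and 9 were lower under CPD-4645 (median -2.90). Their sum, 11.7 to 69.3, 530 to 1200 and 689 to 933 CPM in the 3 groups, was mostly *Lcn2*, which other cells of inflamed brain also make, and without it, a sum taken after the values were seen, the level was 5.43 to 13.3, 77.5 to 302 and 12.5 to 32.9 CPM. The defining neutrophil gene *Ly6g* was at or near 0, at means of 0.00996, 0.159 and 0.0196 CPM. Of 12 microglial genes 1 was higher and 5 lower after LPS (median -0.74), and 1 was higher and 2 lower under CPD-4645 than in LPS-vehicle (median -0.54). The sum of the microglial genes was 276 to 380, 278 to 487 and 213 to 282 CPM in the 3 groups. The part of any of these cells in the levels of *Ccl6*, *Ccl7* and *Ccl9* was not tested.

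The other marker lists had at most 1 gene called between the LPS groups. Of 12 T and NK cell genes 2 were tested, 1 was higher after LPS and edgeR, limma-voom and DESeq2 called 0 under CPD-4645 against LPS-vehicle (1 lower at an unadjusted p under 0.05, median -1.07), and *Trbc1* had no read in any mouse. The sum of the T and NK genes was 9.87 to 15.3 CPM in LPS-vehicle and 6.87 to 8.7 CPM in LPS-CPD-4645, and that of the fibroblast genes 1320 to 2240 and 758 to 1220 CPM, with no overlap in either. Single genes carried both sums. Without *Trbc2*, the T and NK sums were 0 to 2.74 and 0.140 to 1.58 CPM and overlapped. *Apod* had means of 1550 CPM in LPS-vehicle and 783 CPM in LPS-CPD-4645, and without it the fibroblast sums were 151 to 211 and 179 to 238 CPM, overlapped and had the higher mean under CPD-4645 (182 and 210 CPM). The fibroblast gene *Igf2* had a log2 difference of 0.63 between the LPS groups (edgeR adjusted p = 0.0016), under 2-fold. Of the 4 platelet genes tested, edgeR, limma-voom and DESeq2 called 0 in each comparison, with at most 1 higher and 1 lower at an unadjusted p under 0.05. Of 10 endothelial genes 4 were higher and 1 lower after LPS and 1 was lower under CPD-4645 (medians 0.78 and -0.52). Of 10 pericyte and smooth muscle genes 3 were lower after LPS (median -0.33), of 9 fibroblast genes tested 1 was higher and 1 lower (median -0.67), and of 10 astrocyte genes 2 were higher (median 0.36), and edgeR, limma-voom and DESeq2 called 0 genes of these 3 lists between the LPS groups (medians 0.03, -0.25 and -0.06), with at most 2 of a list in one direction at an unadjusted p under 0.05. LPS-vehicle mouse 3, highest for 6 members, had the lowest endothelial sum of its group, 592 CPM against 1030 to 1150 CPM in the other four, and the highest monocyte and macrophage sum, 150 CPM.

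For each member tested, the protein-coding genes with the most similar levels were found among 13776 by Pearson's correlation of log2 CPM over the 13 mice, which share libraries and groups, so the coefficients are descriptions. The closest were *Rab20* for *Ccl2* (0.985), *Cxcl10* for *Ccl3* (0.954), *Setdb1* for *Ccl4* (0.977), *Timp1* for *Ccl5* (0.972), *Chrnb1* for *Ccl6* (0.92), *Wfdc21* for *Ccl7* (0.965), *Sag* for *Ccl9* (0.945), *Eif4ebp3* for *Ccl11* (0.932) and *Tspoap1* for *Ccl12* (0.923). *Setdb1* was among the closest 3 for both *Ccl3* and *Ccl4*, at 0.953 and 0.977, and no other gene was listed for more than 1 member. The next 2 were *Clec4e* and *Trak2* for *Ccl2*, *Setdb1* and *Tinf2* for *Ccl3*, *Atf3* and *Map2k3* for *Ccl4*, *Ifi35* and *C1ra* for *Ccl5*, *Slx1b* and *Hsd17b11* for *Ccl6*, *Myc* and *Arid5a* for *Ccl7*, *Ms4a6c* and *Slfn4* for *Ccl9*, *2510039O18Rik* and *Ssh3* for *Ccl11*, and *Chrd* and *Rhbdf2* for *Ccl12*.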

How the data were processed

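RNA was measured by stranded mRNA sequencing (single-end reads of 75 bases) in neurovasculature of 13 mice. The deposited values were read counts per gene, which the authors made with bcl2fastq 2.15.0.4 and STAR 2.5.2a on GRCm38 with the GENCODE M9 basic annotation, 1 library per mouse, not normalized. Which strand column of the counter was kept is not given in the sources used here. Samples were grouped by the labels. Symbols were matched through GENCODE M21 for 47224 of the 47643 genes, and positions and exon lengths come from there.

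Genes passing filterByExpr (minimum count 10, total 15) were scaled by the trimmed mean of M-values and tested in edgeR 4.0.16 (R 4.3.3) with glmQLFit and glmQLFTest, all 13 mice in one fit, p-values adjusted by Benjamini-Hochberg over 17285 genes. A call needed an adjusted p of at most 0.05 and 2-fold. Standard errors are the log2 fold change divided by the root of F. The script was tested on simulated data. The members and gene lists were chosen with earlier results of these data known. Genes named were the members, the called list gene with the largest change in each direction, and *Ccr1*, *Ccr2*, *Ccr3*, *Ccr7*, *Ccrl2*, *Ackr1* and *Ackr2*, and for each member the 3 genes with the closest pattern; single marker genes were named after their values were seen. Some list items are not reported here. Alternatives were limma-voom (limma 3.58.1), which the study used, DESeq2 1.42.0, its size factors, other filters, only the groups compared, glmTreat, no minimum fold, a replicate block and leaving out libraries. Replicate libraries differed from each other by more than sampling noise in all 22 pairs examined (chi-square per gene 9.5 to 58.86). Counting precision follows depth, from 7813559 to 55133373 reads per library, and the differences between replicate mice add to the counting error. Whether the labels' replicate numbers pair mice across groups is not known, and the main fit treated the mice as unpaired.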

Additional observations from a re-analysis of the deposited data

Results flagged for a closer look

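In 4 of 30 sets of values (10 genes in 3 groups), 1 mouse stood apart from the rest of its group by Dixon's criterion at 95%. Chance gives about 1 in 20 sets for normally distributed values. The criterion was applied to CPM without a log, so that rate is only a rough guide here. *Ccl3* at 77.9 CPM and *Ccl4* at 51.7 CPM were both in LPS-vehicle mouse 3, the shallowest library, and leaving it out changed both calls between the LPS groups. *Ccl5* stood at 1.54 CPM in sham-vehicle mouse 1. *Ccl19* stood at 0.0494 CPM in sham-vehicle mouse 4, which is 1 read, and as the other sham-vehicle mice had no read, this set was bound to be flagged.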

How the results depend on the processing

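Depth limits *Ccl19* (52 reads), *Ccl6* under CPD-4645 (5 to 20 reads) and the sham-vehicle levels most. Of 12 correlations of same-numbered mice, 1 was over 0.1 (range -0.035 to 0.114), which does not settle whether the replicate numbers pair mice. With a replicate block 9, 3 and 8 members were called in the 3 comparisons. In LPS-vehicle against sham-vehicle, limma-voom called 4 members and leaving out 1 mouse gave 8 to 9. In LPS-CPD-4645 against LPS-vehicle, glmTreat called 0 (edgeR at an unadjusted p under 0.05, 3; limma-voom, 4; DESeq2, 3), and leaving out 1 mouse gave 3 to 5, with 5 without LPS-vehicle mouse 3. In LPS-CPD-4645 against sham-vehicle, limma-voom called 3 members and leaving out 1 mouse gave 7 to 8. The log2 difference of *Ccl2* between the LPS groups changed sign with limma-voom (0.12), without the 2 shallowest libraries (0.08) and without LPS-vehicle mouse 3 (0.11, in a leave-one-out range of -0.93 to 0.11). That of *Ccl11* changed sign with limma-voom (1.28), with only the 2 groups compared (0.012), with the replicate block (0.028), without the 2 shallowest libraries (0.49) and without single mice (leave-one-out range -0.35 to 0.49). Neither gene was called in these settings, and the cause was not tested. The log2 fold changes of the other members tested kept their direction in all alternatives run. Why limma-voom called other numbers of members was not tested.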
